A study of Mus musculus with 14 samples.

Results

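The comparison described here was between the mucosa of the duodenum at 3 h and at 1 h after the start of a high-fat (HF) meal. It took 4 of the 14 arrays of the series by their titles, 2 of the HF3h group and 2 of the HF1h group, and tested 45037 probe sets for 18193 genes. In both groups the mice were male C57BL6, 12 weeks old, kept for 2 weeks on a low-fat (LF) diet with 10% of calories from fat and then fasted for 12 h before they ate the HF meal (60% of calories from fat) ad libitum. The mucosa of 20 mice was pooled for each group, and both arrays of a group measured the same pooled RNA, so each p-value below covers the spread between arrays and not that between mice. The LF3h and LF1h groups, with 2 arrays each of pools of 20 mice fed the 10% fat meal, served to ask whether the same step occurred after the other meal. All mice were killed within the same morning hours, so the HF3h mice had begun to eat at an earlier clock time than the HF1h mice. They had the meal before them up to the time of death, and so for longer. The time since the start of the meal, its clock time, and the length of feeding with any difference in the amount eaten cannot be told apart.

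Enterocytes of the duodenum take up the fatty acids and monoglycerides of a meal, join them again into triglyceride in the endoplasmic reticulum, and either export the fat in chylomicrons or hold it for a time in cytosolic lipid droplets. Fatty acids also act as ligands of PPARα, a nuclear receptor that raises the transcription of genes for fatty acid handling and oxidation. Fasting, in turn, keeps genes of gluconeogenesis and of the FOXO transcription factors active, and feeding and insulin lower them.

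The values are log2 intensities, with a median gene at 5.34 in these pools and the 10th percentile at 3.22. The 2 arrays of a group lay close together, with a median SD of 0.073 in HF3h and 0.082 in HF1h, and the median gene changed by -0.02 between the groups. With a moderated test in limma and Benjamini-Hochberg adjustment over all probe sets, 419 probe sets (0.93%) were higher and 431 (0.957%) lower in HF3h at an adjusted p under 0.05. Of these, 38 (0.0844%) rose and 20 (0.0444%) fell at least 2-fold. At the level of genes, each read from its brightest probe set, 222 of 18193 (1.22%) rose and 252 (1.39%) fell, and 20 (0.11%) rose and 13 (0.0715%) fell at least 2-fold. Every count of list members below is to be read beside the shares of 1.22% and 1.39% of all genes. In all 474 genes past the threshold both HF3h arrays lay on the same side of both HF1h arrays, as they also did, above or below, for 19.2% and 25.3% of all genes. The counts at 2-fold moved little when 1 array was left out (33 to 36 higher and 21 to 24 lower), while the counts with no fold minimum came to 164 higher and 170 lower without HF3h replicate 1, 200 and 205 without HF3h replicate 2, 286 and 282 without HF1h replicate 1, and 206 and 167 without HF1h replicate 2. Genes with several probe sets did not always change in all of them. In Acsl3, Dipk2a, Ccl28, Fkbp5, Hspa8, Slc11a2, Bach2, AA986860, Dnajb1 and others, a dimmer probe set changed by under 0.15 or the other way. Such probe sets were near the low end of the scale in Fkbp5 (mean level of 2.60), Acsl3 (3.24), AA986860 (3.74) and Dipk2a (3.86). They were brighter in Ccl28 (6.29), Hspa8 (6.41), Slc11a2 (6.44) and Dnajb1 (8.90). A call is said below to have held when it passed with each of these 4 arrays left out in turn.

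**Figure D1:**
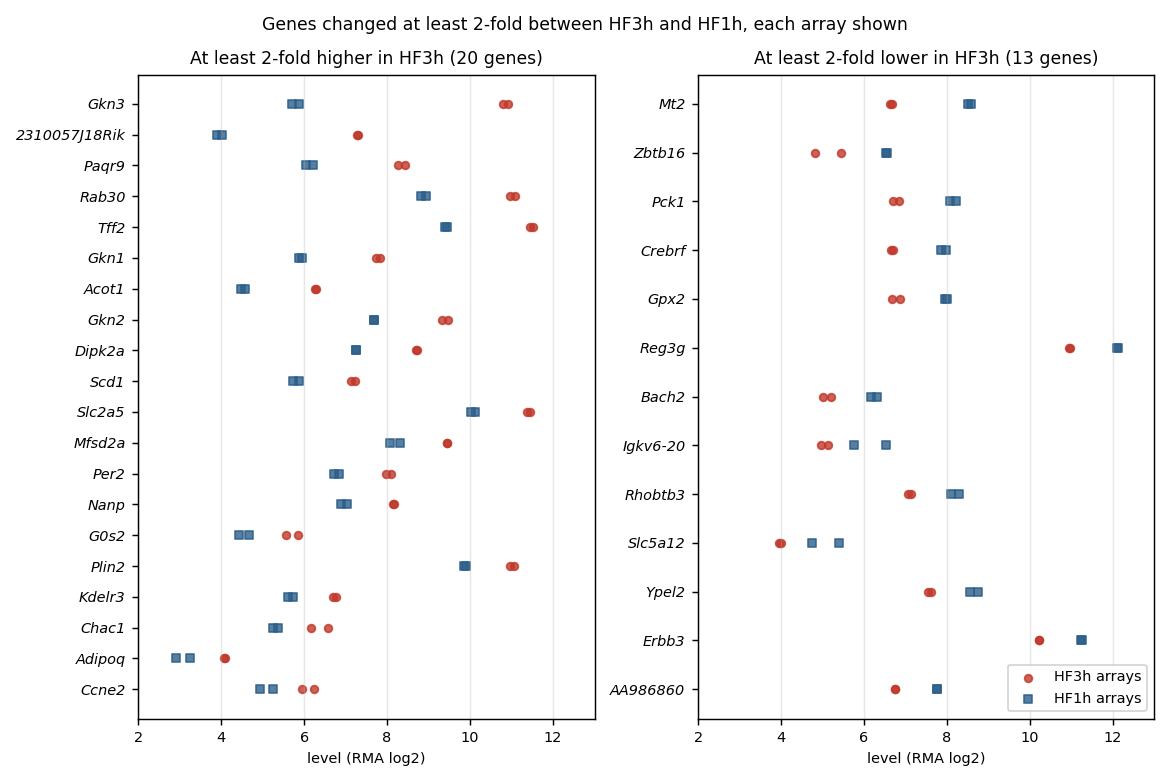
Levels (RMA log2, horizontal axis) of the 20 genes at least 2-fold higher and the 13 genes at least 2-fold lower in HF3h, ordered by the size of the change; circles are the 2 HF3h arrays and squares the 2 HF1h arrays. The arrays of the groups do not overlap for any of the genes, and Gkn3 shows the widest gap.

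The 13 enterocyte markers were bright in both groups, with a median level of 12.83 in HF3h and 12.87 in HF1h. None of them passed the test, and their differences had a median of 0.03, with Lct, the lactase gene, at 12.40 and 12.41 in HF3h, against 12.33 and 12.35 in HF1h. With the test limited to genes of a mean level of at least 6, 3 of the 13 were higher and 1 lower. Markers of smooth muscle (12 genes), B and plasma cells (9), T cells (9) and myeloid cells (14) had no member past the threshold in the reported fit. With the limit on the mean level, 1 of 8 T cell markers and 1 of 4 myeloid cell markers were lower. Because the samples are bulk mucosa, fewer cells of a type and less RNA per cell cannot be told apart in any of the values below.

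Genes of fatty acid handling were among the leading rises. Of 37 measured PPARα targets, 8 rose and none fell, against 1.22% and 1.39% of all genes, and their median difference was 0.12 against -0.02 for all genes. Plin2, which coats the surface of lipid droplets, had levels of 11.06 and 10.97 in the HF3h arrays, against 9.85 and 9.91 in the HF1h arrays. All 4 arrays of the pair are bright, and the rise was 1.14 ± 0.088 (SE) on the log2 scale, or 2.2-fold (adjusted p = 9.71e-06). Acot1, a cytosolic thioesterase that frees fatty acids from coenzyme A, measured 6.28 and 6.27 in the HF3h arrays, against 4.57 and 4.48 in the HF1h arrays, a rise of 1.75 ± 0.12 that started from a low level. G0s2, an inhibitor of the lipase ATGL, measured 5.57 and 5.86 in the HF3h arrays, against 4.43 and 4.67 in the HF1h arrays (rise of 1.16). Acsl3, which activates fatty acids at growing droplets, rose by 0.92, Acot2, a mitochondrial thioesterase, by 0.73 and Pex11a, which acts in the division of peroxisomes, by 0.54. The remaining members past the threshold were Acaa1b, a peroxisomal thiolase (0.36), and Crat, carnitine acetyltransferase (0.35). Classical PPARα targets did not all move: Cpt1a, the entry step of mitochondrial fatty acid oxidation, differed by 0.22 (adjusted p = 0.265), Pdk4 by 0.24 (adjusted p = 0.197) and Angptl4 by 0.05 (adjusted p = 0.875). The calls of Plin2, Acot1, G0s2 and Acsl3 held, Acot2 did not pass without HF3h replicate 1 (adjusted p = 0.067), Pex11a did not without HF3h replicate 2 or HF1h replicate 1 (up to 0.0542), and Acaa1b and Crat did not without any 1 array, so that the count of 8 fell to 5 without HF3h replicate 1, HF3h replicate 2 or HF1h replicate 1 and to 6 without HF1h replicate 2.

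On the list of 19 lipid droplet genes 4 rose and none fell: G0s2, Plin2, Cidec and Abhd5. Cidec, which promotes the fusion of droplets, measured 9.36 and 9.30 in the HF3h arrays, against 8.50 and 8.61 in the HF1h arrays (rise of 0.78 ± 0.087, adjusted p = 0.000291). Abhd5, the coactivator of ATGL, rose by 0.47, a call that ended without any 1 array and with the replicate block. Of 30 genes of triglyceride synthesis and chylomicron assembly, 2 rose, Agpat2 (0.62) and Dgat2 (0.53), which act at the acyltransfer steps of triglyceride synthesis, and both held. The count depended on the genes tested, with 8 higher and 1 lower of 29 when only genes of a mean level of at least 6 were tested, and 4 higher with the mean of all probe sets of a gene. Apoa4, a main apolipoprotein of chylomicrons, was near the top of the scale in both groups (13.87 and 13.86 in HF3h, against 13.74 and 13.81 in HF1h) and did not pass. Mfsd2a, a transporter of lysophospholipids that carry long-chain fatty acids, was not on a list and measured 9.44 and 9.45 in the HF3h arrays, against 8.08 and 8.31 in the HF1h arrays, a rise of 1.25 ± 0.095. Adipocytes also express several of these genes. Of 10 adipocyte markers 3 rose, Adipoq (4.07 and 4.09 in HF3h, against 2.90 and 3.25 in HF1h), Cidec and Fabp4 (7.50 and 7.42 in HF3h, against 6.92 and 6.82 in HF1h), and the log2 of the summed intensities of the list was 10.23 and 10.16 in the HF3h arrays, against 9.70 and 9.72 in the HF1h arrays. Cidec, the brightest of the markers and also on the lipid droplet list, weighs most in that sum. Of the 10 markers, 6 had a mean under 6 in both groups, among them Adipoq, the adiponectin gene. With the test limited to genes of a mean level of at least 6, 2 of 3 adipocyte markers were higher and 1 lower. The part of adipocyte RNA in the changes of the lipid genes was not tested. The call of Fabp4 ended without HF3h replicate 1, HF3h replicate 2 or HF1h replicate 2 (adjusted p up to 0.111).

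A desaturase and a lipogenic factor rose, and exporters of sterols fell. Scd1, which introduces the double bond into stearic acid, measured 7.12 and 7.23 in the HF3h arrays, against 5.88 and 5.73 in the HF1h arrays, a rise of 1.37 ± 0.097 (adjusted p = 4.56e-06). Its second probe set, with a low mean level of 3.25, differed by only 0.16. Srebf1, the gene of the lipogenic factor SREBP-1, measured 10.12 and 10.15 in the HF3h arrays, against 9.16 and 9.26 in the HF1h arrays (rise of 0.93). These were the 2 of 18 fatty acid synthesis genes past the threshold, and both held. Among 15 genes of sterol transport and LXR targets, Srebf1 was the 1 that rose and 3 fell. Abcg8, one of the paired transporters that return sterols to the lumen, measured 9.63 and 9.67 in the HF3h arrays, against 10.42 and 10.56 in the HF1h arrays (fall of 0.84 ± 0.083, adjusted p = 9.58e-05) and held. Its partner Abcg5 fell by 0.36 and Abca1, which exports cholesterol to apolipoprotein A-I, by 0.42. Both calls ended without any 1 array and after centring each array on its median. Of 20 cholesterol synthesis genes, 1 fell, Stard4, a sterol carrier (-0.40), and it did not hold.

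Some nuclear receptors of lipid metabolism fell. Ppara itself measured 8.22 and 8.11 in the HF3h arrays, against 8.84 and 8.88 in the HF1h arrays, a fall of 0.70 ± 0.086 (adjusted p = 0.000624), and its 3 probe sets lay between -0.89 and -0.70. Ppara was thus lower in the same arrays in which 8 of its listed targets were higher. Hnf4g, an enterocyte receptor related to HNF4α, measured 8.96 and 9.06 in the HF3h arrays, against 9.77 and 9.60 in the HF1h arrays (fall of 0.68), and Nr5a2, known as LRH-1, fell by 0.53. These were the 3 of 19 receptors and coactivators past the threshold, and none rose. Pparg (-0.21, adjusted p = 0.281) and Ppargc1a (-0.14, adjusted p = 0.535) did not pass. The calls of Ppara and Hnf4g held, and that of Nr5a2 ended without HF3h replicate 1, HF3h replicate 2 or HF1h replicate 2 (adjusted p up to 0.117). Among 10 genes of bile acid sensing and transport, the vitamin D receptor gene Vdr, which also senses lithocholic acid, fell (9.96 and 10.04 in HF3h, against 10.66 and 10.80 in HF1h, a difference of -0.73), Abcc2 fell by 0.52 and Nr0b2, the repressor SHP induced by bile acids, rose by 0.54. Abcc2, an organic anion exporter, did not pass without HF3h replicate 1 or HF1h replicate 1 (up to 0.0914).

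Genes of sugar handling moved in both directions. Slc2a5, the fructose transporter GLUT5, measured 11.44 and 11.37 in the HF3h arrays, against 10.03 and 10.11 in the HF1h arrays, a rise of 1.33 ± 0.079 (adjusted p = 6.93e-07) that held. Tkfc, a kinase of fructolysis, rose by 0.41 but did not hold, and Slc5a4a, a relative of the sodium-glucose cotransporters, fell by 0.56 and held. The other 13 of 16 genes on that list did not pass. Pck1, the gene of the cytosolic PEPCK of gluconeogenesis, measured 6.69 and 6.84 in the HF3h arrays, against 8.08 and 8.22 in the HF1h arrays, a fall of 1.39 ± 0.10 (adjusted p = 8.07e-06). It was already below the fasting level of 9.22 in HF1h. Its 3 probe sets differed by -1.39, -1.01 and -0.05, the last with a low mean level of 2.70. G6pc, glucose-6-phosphatase, differed the other way (0.37) and Pdp2, a phosphatase of pyruvate dehydrogenase, fell by 0.49, but neither call passed with any 1 array left out, and the count of 2 lower genes out of 19 on the list of gluconeogenesis and pyruvate fate was then 1.

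**Figure D2:**
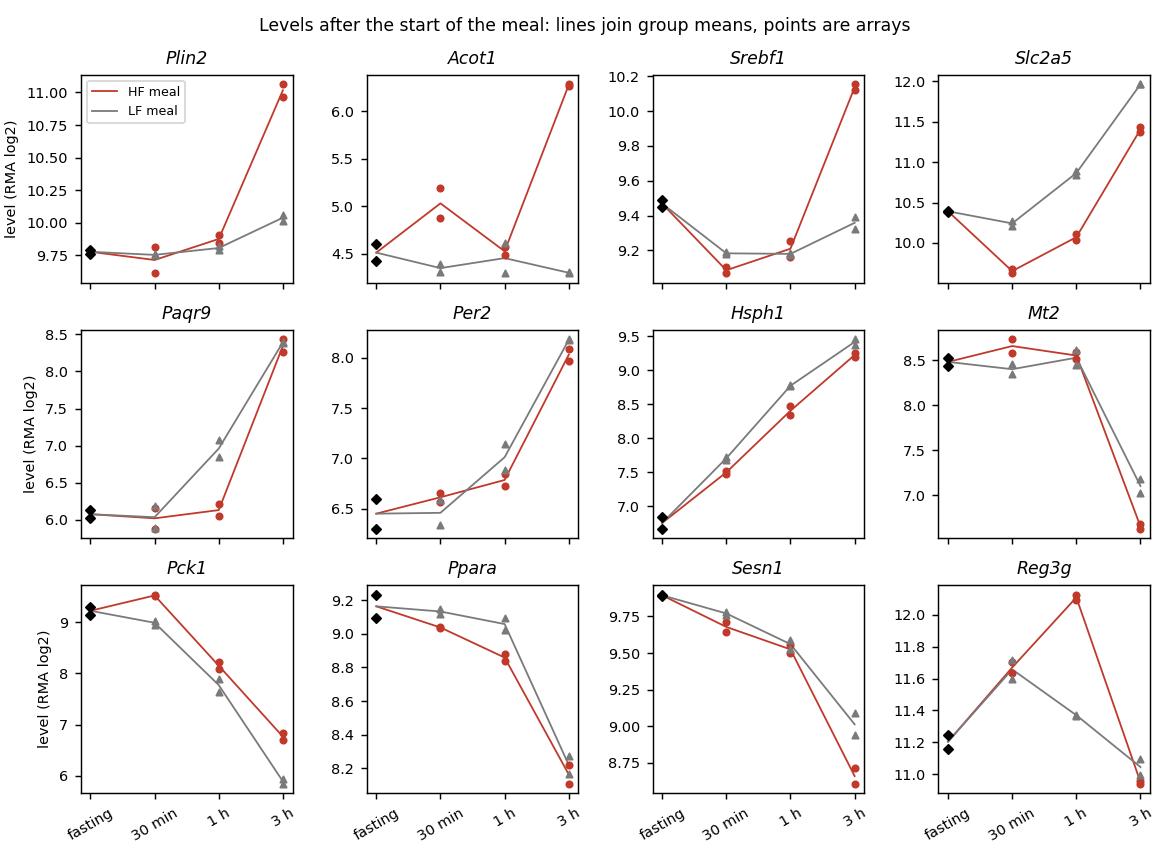
Levels (RMA log2, vertical axis) of 12 genes at each stage on the horizontal axis, from fasting to 3 h, after the HF meal (circles) or the LF meal (triangles); points are arrays, diamonds are the fasting arrays and lines join group means. Between 1 h and 3 h Plin2, Acot1 and Srebf1 rose after the HF meal and stayed near their 1 h level after the LF meal, while Slc2a5, Per2, Mt2, Pck1 and Ppara moved the same way after both.

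Targets of FOXO1, a factor that insulin keeps out of the nucleus, moved in both directions. On a list of 32 such genes 3 fell and 2 rose. Sesn1, a stress-induced inhibitor of mTORC1 signalling, measured 8.61 and 8.71 in the HF3h arrays, against 9.50 and 9.55 in the HF1h arrays (fall of 0.86 ± 0.085, adjusted p = 9.33e-05), and Bcl2l11, the proapoptotic factor BIM, measured 9.03 and 8.97 in the HF3h arrays, against 9.77 and 9.80 in the HF1h arrays (fall of 0.78). Pck1 is the third, and all 3 held. The 2 that rose were Bcl6, a transcriptional repressor (0.54), and G6pc. The call of Bcl6 ended without HF3h replicate 1 or HF1h replicate 2 (adjusted p up to 0.0997) and that of G6pc without any 1 array, which left 1 or none of the 2. Foxo1 itself had levels of 8.23 and 8.28 in HF3h, against 8.33 and 8.19 in HF1h. The groups overlapped and the difference had no settled sign.

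The promoter of Bcl2l11 is shown because it holds the forkhead consensus of the FOXO factors, marked in capitals. The window is the 250 bases before 1 of its 2 annotated starts, chr2:128125788-128126037 on the plus strand of GRCm38.p6 (RefSeq).
Bcl2l11: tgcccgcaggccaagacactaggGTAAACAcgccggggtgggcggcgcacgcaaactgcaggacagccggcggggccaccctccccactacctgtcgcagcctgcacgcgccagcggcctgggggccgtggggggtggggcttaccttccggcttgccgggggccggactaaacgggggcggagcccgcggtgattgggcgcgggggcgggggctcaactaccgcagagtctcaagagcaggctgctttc
The letters searched were GTAAACA on both strands. They were found in 4.364% of 275 windows of genes that fell, in 2.146% of 233 windows of genes that rose and in 2.612% of 18109 windows of all measured genes. The window before the other start of Bcl2l11 held none.

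CREB1 targets had 4 of 26 members lower and none higher, with a median of -0.23 against -0.02 for all genes. Besides Pck1 they were Fos, an immediate early factor (11.04 and 11.05 in HF3h, against 11.61 and 11.63 in HF1h, a difference of -0.58), Atf3 (-0.46) and Ccna2, the cyclin A2 gene (-0.52). Fos and Pck1 held. The count was 2 without HF3h replicate 1 or HF1h replicate 2, where Atf3 (adjusted p up to 0.138) and Ccna2 (up to 0.26) did not pass. Ccna2 also did not pass without HF1h replicate 1. The regulators Creb1 (0.04, adjusted p = 0.907), Nr4a1 (-0.18, 0.541), Cebpb (-0.21, 0.322) and Smad3 (-0.20, 0.3) did not pass. On the wider list of 32 immediate early genes Fos and Atf3 were the 2 that fell. With the test limited to genes of a mean level of at least 6, 8 of 22 were lower and 2 higher.

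Metallothioneins and further genes that respond to glucocorticoids fell, among them Mt2 with the largest fall of all genes tested. Mt2, a cysteine-rich protein that binds zinc and copper, measured 6.63 and 6.68 in the HF3h arrays, against 8.52 and 8.58 in the HF1h arrays. Both HF3h arrays were far below both HF1h arrays, and the fall was 1.89 ± 0.096, or 3.72-fold (adjusted p = 1.56e-07). Its neighbour on chromosome 8, Mt1, measured 9.88 and 9.76 in the HF3h arrays, against 10.51 and 10.59 in the HF1h arrays (fall of 0.73), although a second probe set of Mt1 differed by 0.01. Of 13 metallothionein and zinc transporter genes, Slc30a4 also fell (0.62) and Slc30a10, an exporter of manganese, rose (0.58). All 4 calls held. Of 19 genes that respond to glucocorticoids 4 fell and 1, Bcl6, rose. Besides both metallothioneins these were Zbtb16, the transcription factor PLZF, with 5.45 and 4.83 in HF3h, against 6.54 and 6.55 in HF1h (a fall of 1.41 ± 0.15), and Fkbp5, a cochaperone of the glucocorticoid receptor (-0.55). Zbtb16 had the widest spread of the named genes between HF3h arrays, and Fkbp5 did not pass without HF3h replicate 2 or HF1h replicate 2 (adjusted p up to 0.0644).

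The promoters of Mt2 and Mt1 are shown because both genes fell and metallothionein promoters are known for metal response elements, the sites of the zinc-sensing factor MTF-1. The letters searched were TGCNCNC on both strands, with any base at each N, and matches are in capitals. Whether a match is a site of MTF-1 was not tested. The windows are the 250 bases before the start on the plus strand of chromosome 8 in GRCm38.p6 (RefSeq), chr8:94172368-94172617 for Mt2 and chr8:94178839-94179088 for Mt1.
Mt2: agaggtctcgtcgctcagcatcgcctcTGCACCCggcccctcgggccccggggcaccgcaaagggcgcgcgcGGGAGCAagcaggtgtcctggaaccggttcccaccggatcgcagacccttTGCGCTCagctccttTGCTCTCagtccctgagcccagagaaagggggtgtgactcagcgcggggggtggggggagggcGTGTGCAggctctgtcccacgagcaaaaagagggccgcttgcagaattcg
Mt1: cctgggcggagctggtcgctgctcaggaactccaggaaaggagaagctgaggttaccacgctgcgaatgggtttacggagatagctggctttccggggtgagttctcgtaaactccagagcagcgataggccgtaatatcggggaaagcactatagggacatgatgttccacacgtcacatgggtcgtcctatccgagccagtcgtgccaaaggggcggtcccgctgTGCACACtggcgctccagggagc
The Mt2 window had 5 matches to these letters, which 0.431% of the windows of measured genes reached or exceeded, and the Mt1 window had 1. Bases beyond the annotated starts were not searched, so these counts do not compare the whole promoters of both genes. At least 1 match was common and was found in 52.364% of windows of genes that fell, 52.79% of windows of genes that rose and 50.583% of windows of all measured genes.

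Several chaperones rose. Of 32 cytosolic and mitochondrial heat shock proteins 6 rose and 1 fell. Hsph1, a chaperone of the HSP110 class, measured 9.26 and 9.19 in the HF3h arrays, against 8.34 and 8.47 in the HF1h arrays, a rise of 0.82 ± 0.088 (adjusted p = 0.000206). Hsp90aa1, the inducible HSP90, measured 10.32 and 10.27 in HF3h, against 9.72 and 9.58 in HF1h (rise of 0.64), and Dnaja1, a J-domain cochaperone, rose by 0.55. These 3 held. Hspb1 (0.51), Chordc1 (0.49) and Hspa8 (0.49) rose and Dnajb1 fell (-0.42), but none of the 4 passed with any 1 array left out, so that 3 rose and none fell in each case. In the endoplasmic reticulum, 3 of 34 chaperone and unfolded protein response genes rose and none fell. With the test limited to genes of a mean level of at least 6, 10 of these 34 were higher and none lower. In the reported fit the 3 genes were as follows. Creld2, a stress-induced disulphide isomerase, measured 8.83 and 8.81 in HF3h, against 8.10 and 8.12 in HF1h (rise of 0.71) and held, Ero1a, an oxidase of protein folding (0.57), did not pass without HF3h replicate 2 or HF1h replicate 2, and Wfs1, the gene of wolframin (0.56), did not without HF3h replicate 1 or HF1h replicate 2, which left 2 of the 3 genes without either HF3h array and 1 without HF1h replicate 2. Kdelr3, a receptor that returns escaped proteins to the endoplasmic reticulum, was not on the list and measured 6.78 and 6.70 in the HF3h arrays, against 5.72 and 5.60 in the HF1h arrays (rise of 1.08 ± 0.12).

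Among 27 ATF4 targets of the amino acid response 2 rose, Chac1 and Slc7a5. Chac1, which degrades glutathione, measured 6.18 and 6.57 in the HF3h arrays, against 5.38 and 5.26 in the HF1h arrays (rise of 1.06 ± 0.16, adjusted p = 0.00235). Slc7a5, a transporter of large neutral amino acids, was low in all arrays (5.92 and 5.78 in HF3h, against 5.27 and 5.24 in HF1h) and rose by 0.59. Both held, and none of 19 aminoacyl tRNA synthetases, a further set of ATF4 targets, passed. The Chac1 promoter, chr2:119350992-119351241 on the plus strand of GRCm38.p6 (RefSeq, the 250 bases before the start), is shown for the composite element bound by C/EBP and ATF factors, in capitals.
Chac1: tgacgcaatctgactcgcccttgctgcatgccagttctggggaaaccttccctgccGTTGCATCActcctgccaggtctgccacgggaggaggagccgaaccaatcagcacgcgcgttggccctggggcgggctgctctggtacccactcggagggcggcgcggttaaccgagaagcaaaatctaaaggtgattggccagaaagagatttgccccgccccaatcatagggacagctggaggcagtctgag
The element was searched as TGATGNAAN on both strands. It was found in 2.575% of the windows of genes that rose and in 2.369% of those of all measured genes.

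Of 21 circadian clock genes 3 rose and none fell, with a median difference of -0.08. The count depended on the genes tested: with only genes of a mean level of at least 6, 4 of 14 were higher and 3 lower. Per2, a repressor of the clock, measured 7.97 and 8.09 in the HF3h arrays, against 6.72 and 6.85 in the HF1h arrays, a rise of 1.24 ± 0.12 (adjusted p = 9.24e-05), but its 3 probe sets ranged from 0.18 to 1.24. Cry1 (0.48) and Bhlhe40 (0.45) are further repressors of the same loop. Per2 held, while Cry1 (adjusted p up to 0.263) and Bhlhe40 (up to 0.121) did not pass without HF3h replicate 1, HF3h replicate 2 or HF1h replicate 2, which left Per2 as the 1 gene of the list.

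Several products of the antimicrobial defence fell. Of 15 genes of the Reg family and antimicrobial products 5 fell and 1, Reg3d (0.35), rose, with a median of -0.23. Reg3g, a lectin that kills gram-positive bacteria, was among the brightest genes and measured 10.94 and 10.96 in the HF3h arrays, against 12.13 and 12.09 in the HF1h arrays, a fall of 1.16 ± 0.083 (adjusted p = 5.03e-06). It stood above the fasting level of 11.20 in HF1h and below it in HF3h. Ang4, a ribonuclease of Paneth cells, measured 7.20 and 7.18 in the HF3h arrays, against 7.94 and 8.13 in the HF1h arrays (fall of 0.85), Itln1, a lectin of goblet and Paneth cells, fell by 0.64, and Lyz1, the Paneth cell lysozyme, by 0.57. Reg2, which acinar cells of the pancreas also express, fell by 0.67. All 5 falls held, while the rise of Reg3d did not pass with any 1 array left out. Goblet and Paneth cell markers overlap with this list, and 4 of 12 fell (Ang4, Itln1, Lyz1 and Spink4) and 1, Agr2 (0.44), rose. Spink4 did not pass with any 1 array left out (adjusted p up to 0.142) and Agr2 did not without HF3h replicate 1, HF3h replicate 2 or HF1h replicate 1 (up to 0.189), which left 3 lower genes and 0 or 1 higher. This list also held Muc2, the mucin of goblet cells, at 11.95 and 11.95 in HF3h, against 12.01 and 12.05 in HF1h, which did not pass. Leap2, a hepatic and intestinal peptide that antagonises the ghrelin receptor and has antimicrobial activity, was named after its values were seen and went the other way, with 12.31 and 12.30 in the HF3h arrays, against 11.32 and 11.41 in the HF1h arrays (rise of 0.94 ± 0.080).

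Other genes of mucosal defence also fell. Gpx2, the glutathione peroxidase of the gut epithelium, measured 6.68 and 6.87 in the HF3h arrays, against 8.01 and 7.96 in the HF1h arrays, a fall of 1.21 ± 0.11 (adjusted p = 3.21e-05). Of 26 inflammation and NF-kB targets 3 fell and 1 rose. Ccl28, a mucosal chemokine for plasma cells, measured 7.47 and 7.30 in HF3h, against 8.15 and 8.14 in HF1h (a difference of -0.76) and held, while Nfkbia, the inhibitor IκBα (-0.51), Relb (-0.44) and Bcl3 (0.53), did not all hold: Nfkbia did not pass without HF3h replicate 2 or HF1h replicate 2, Bcl3 without HF3h replicate 1 or HF1h replicate 2 and Relb without any 1 array. Among 22 interferon-responsive genes Ifit3 rose (0.50) and Iigp1 (-0.54) and Gbp2 (-0.46) fell, and none of the 3 held. No MHC class II gene (7 measured) passed. With the test limited to genes of a mean level of at least 6, 1 of 6 MHC class II genes was lower. The same limit gave 7 lower and 1 higher of 28 xenobiotic enzymes. Of 30 xenobiotic enzymes, Cyp2c55 (-0.55) and Gstm1 (-0.48) fell, and Gstm1 did not pass without HF3h replicate 2 or HF1h replicate 1.

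Both entry steps of dietary iron into the enterocyte had higher transcript levels. Slc11a2, the iron importer DMT1, measured 8.34 and 8.26 in the HF3h arrays, against 7.40 and 7.50 in the HF1h arrays, a rise of 0.85 ± 0.081 (adjusted p = 7.35e-05), with its 4 probe sets between -0.03 and 0.85. Cybrd1, the ferric reductase of the brush border, measured 9.0 and 9.0 in the HF3h arrays, against 8.28 and 8.35 in the HF1h arrays (rise of 0.69). Both held, and Hmox1, which frees iron from haem, fell by 0.46 and did not. The other 9 of 12 genes on the list did not pass. On the list of 23 HIF1 and glycolysis genes Hif1a itself rose (10.32 and 10.41 in HF3h, against 9.73 and 9.83 in HF1h, a difference of 0.58) and held, Egln3 (0.49) and Ankrd37 (0.47) rose and Ndrg1 fell (-0.55), none of which held. Epas1, the gene of HIF2α, which drives iron uptake genes in the duodenum, differed by -0.21 (adjusted p = 0.274).

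Several of the largest rises were in genes on none of the lists above. Paqr9, a receptor of the progestin and adipoQ family, measured 8.26 and 8.43 in the HF3h arrays, against 6.05 and 6.21 in the HF1h arrays, a rise of 2.22 ± 0.13 (adjusted p = 5.88e-07). Rab30, a small GTPase of the Golgi, measured 11.09 and 10.97 in the HF3h arrays, against 8.81 and 8.95 in the HF1h arrays, a rise of 2.15 ± 0.097 (adjusted p = 4.13e-08). Both of its probe sets rose, the lesser by 1.04. Dipk2a, a secreted kinase-like protein, measured 8.69 and 8.72 in HF3h, against 7.25 and 7.25 in HF1h (rise of 1.45), and Nanp, a phosphatase of sialic acid synthesis, 8.15 and 8.15 in HF3h, against 7.03 and 6.89 in HF1h (rise of 1.19). The cyclin E2 gene Ccne2 rose by 1.0 from a low level (6.23 and 5.95 in HF3h, against 5.24 and 4.93 in HF1h) and did not pass without HF3h replicate 1 or HF1h replicate 2 (adjusted p up to 0.0768). It was the 1 higher and Ccna2 the 1 lower of 31 cell cycle genes, with neither left without HF3h replicate 1 or HF1h replicate 2 and no lower gene left without HF1h replicate 1. The lysosomal protease gene Ctsl, named after its values were seen, rose by 0.92 (10.30 and 10.24 in HF3h, against 9.32 and 9.40 in HF1h).

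The largest falls outside the lists included those of regulators. Crebrf, a cofactor that lowers CREB3, measured 6.64 and 6.69 in the HF3h arrays, against 7.86 and 7.98 in the HF1h arrays, a fall of 1.25 ± 0.089 (adjusted p = 4.56e-06). Bach2, a transcriptional repressor known from lymphocytes, measured 5.20 and 5.0 in HF3h, against 6.17 and 6.32 in HF1h (a difference of -1.15, with its 3 probe sets between -1.15 and 0.06). Erbb3, a receptor of neuregulins, was bright in all arrays and measured 10.22 and 10.23 in the HF3h arrays, against 11.23 and 11.25 in the HF1h arrays (fall of 1.01 ± 0.082). Both of its probe sets fell. Rhobtb3 (-1.09), Ypel2 (-1.07) and AA986860 (-1.01) completed the falls that held at this size. Slc5a12, a sodium-coupled transporter of lactate, fell by 1.09 to levels near the bottom of the range (4.01 and 3.94 in HF3h, against 4.73 and 5.39 in HF1h) and did not pass without HF3h replicate 2 or HF1h replicate 2 (adjusted p up to 0.0664). Of 11 genes on the list of cold-inducible RNA-binding proteins and Clk kinases, 1 fell, Cirbp (-0.72), and it did not pass without HF3h replicate 1 (adjusted p = 0.0735).

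The widest gap of all was in genes of the stomach and of Brunner's glands, the mucous glands below the first part of the duodenum. Gkn3, a gastrokine of gastric mucous cells, measured 10.78 and 10.91 in the HF3h arrays, against 5.71 and 5.86 in the HF1h arrays, a rise of 5.06 ± 0.17, or 33.3-fold (adjusted p = 1.95e-09). The mean was 5.04 in the fasting pool and 11.61 at 30 min after the HF meal. Tff2, a trefoil peptide of mucous neck cells and Brunner's glands, measured 11.53 and 11.45 in the HF3h arrays, against 9.40 and 9.45 in the HF1h arrays (rise of 2.07), Gkn1 rose by 1.86, Gkn2 by 1.71, Tff1 by 0.94 and Ctse, an aspartic protease, by 0.41. These were 6 of 14 markers, none fell, and the log2 of the summed intensities of the list was 12.91 and 12.89 in the HF3h arrays, against 11.20 and 11.23 in the HF1h arrays. The calls of all but Ctse held. The rise was not shared by the whole list: 8 of the 14 markers did not pass, and the median difference was 0.14. Of the 14, 7 had a mean under 6 in both groups. The transcript 2310057J18Rik, second in size, measured 7.27 and 7.31 in the HF3h arrays, against 3.90 and 4.02 in the HF1h arrays (rise of 3.33), with a mean of 8.66 at 30 min after the HF meal and of 3.81 in the fasting pool. Of the 20 genes at least 2-fold higher, 5 were on the lists of stomach, pancreas, islet and adipocyte genes. Of the 18193 genes, these lists held 14 stomach, 17 enzyme, 26 other acinar, 10 islet and 10 adipocyte genes, with overlaps. Of the 38 probe sets at least 2-fold higher, 28 were left without the genes of these lists and the smooth muscle list. This alternative was chosen after the data were seen. The part of RNA from these tissues in the other changes was not tested.

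Pancreatic genes were on these arrays as well. The 17 digestive enzymes had no member past the threshold and a median difference of 0.15. With the test limited to genes of a mean level of at least 6, 5 of 16 were higher and none lower, and with the mean of all probe sets of a gene 1 of 17 was higher. The enzymes had a log2 of summed intensities of 17 and 16.99 in the HF3h arrays, against 16.89 and 16.88 in the HF1h arrays. Of 26 other acinar genes, Tff2, the cholecystokinin receptor gene Cckar (0.80) and Pdia2 (0.45) rose, and Reg2 and Nr5a2 fell. The rise of Pdia2 did not pass with any 1 array left out, and the fall of Nr5a2 did not without HF3h replicate 1, HF3h replicate 2 or HF1h replicate 2. The regulators Ptf1a (0.21, adjusted p = 0.706) and Rbpjl (0.25, adjusted p = 0.463) did not pass. Of 10 islet genes Ins2 (10.14 and 10.12 in HF3h, against 9.33 and 9.36 in HF1h, a rise of 0.79) and Iapp (8.37 and 8.18 in HF3h, against 7.41 and 7.42 in HF1h, a rise of 0.86) rose, and Iapp did not pass without HF3h replicate 1 or HF1h replicate 2 (adjusted p up to 0.0871).

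**Figure D3:**
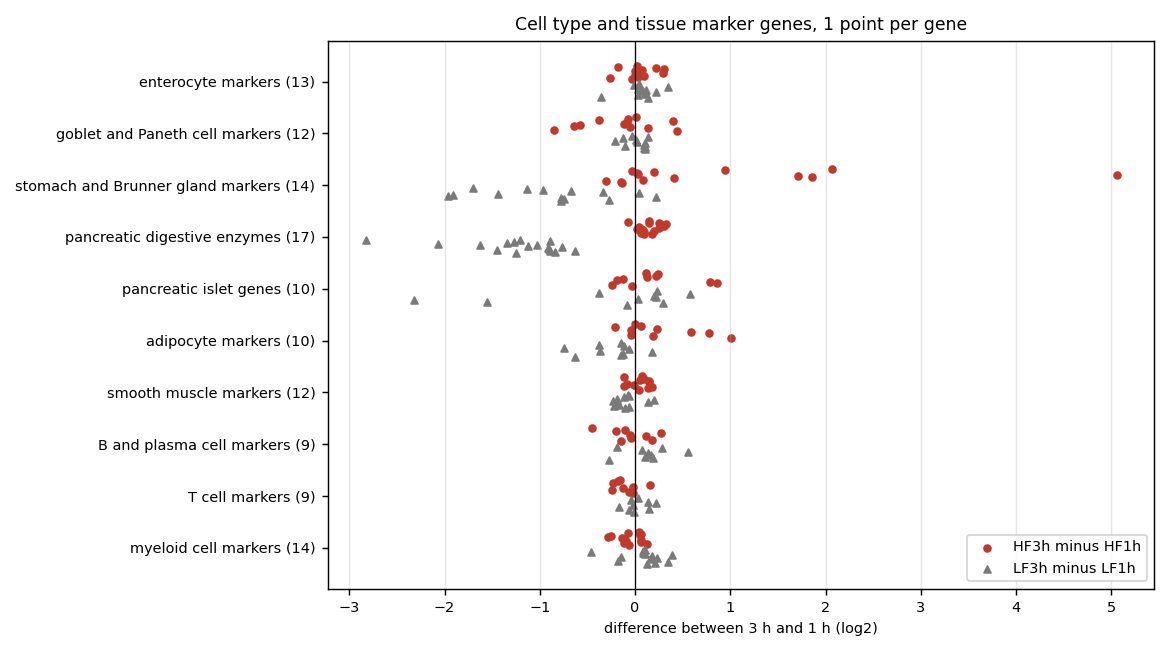
Difference between 3 h and 1 h (log2, horizontal axis) for each measured gene on 10 lists of cell type and tissue markers, after the HF meal (circles) and after the LF meal (triangles). After the HF meal 5 stomach and Brunner's gland genes lie at 0.94 or more while digestive enzymes stay near 0, and after the LF meal all 17 digestive enzymes lie below 0.

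The HF step was then set beside the step from 1 h to 3 h after the LF meal, whose groups share no array with the HF groups. After the LF meal 505 probe sets (1.12%) were higher and 557 (1.24%) lower at 3 h than at 1 h. Of the 222 genes that rose after the HF meal, 61 also rose after the LF meal, 14 fell and 147 did not pass. Of the 252 that fell, 104 also fell, 2 rose and 146 did not pass. For comparison, 1.08% of all genes rose and 1.71% fell in the LF step. The difference between the steps itself passed for 105 genes (0.577%) in which the HF step lay above the LF step and for 28 (0.154%) in which it lay below. These include 40 of the 222 genes that rose after the HF meal, and 15 of the 252 that fell. Over probe sets the difference passed for 182 (0.404%) above and 49 (0.109%) below. With 1 of the 8 arrays left out, the count of 182 came to between 121, without LF3h replicate 1, and 142, without HF1h replicate 1. That of 49 came to 23 without HF3h replicate 1, 31 without HF3h replicate 2, 27 without HF1h replicate 2, 30 without LF3h replicate 1, 21 without LF3h replicate 2 and 24 without LF1h replicate 2. The LF step itself had 165 higher and 235 lower probe sets without LF3h replicate 1, 95 and 273 without LF3h replicate 2, 345 and 345 without LF1h replicate 1, and 135 and 336 without LF1h replicate 2.

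**Figure D4:**
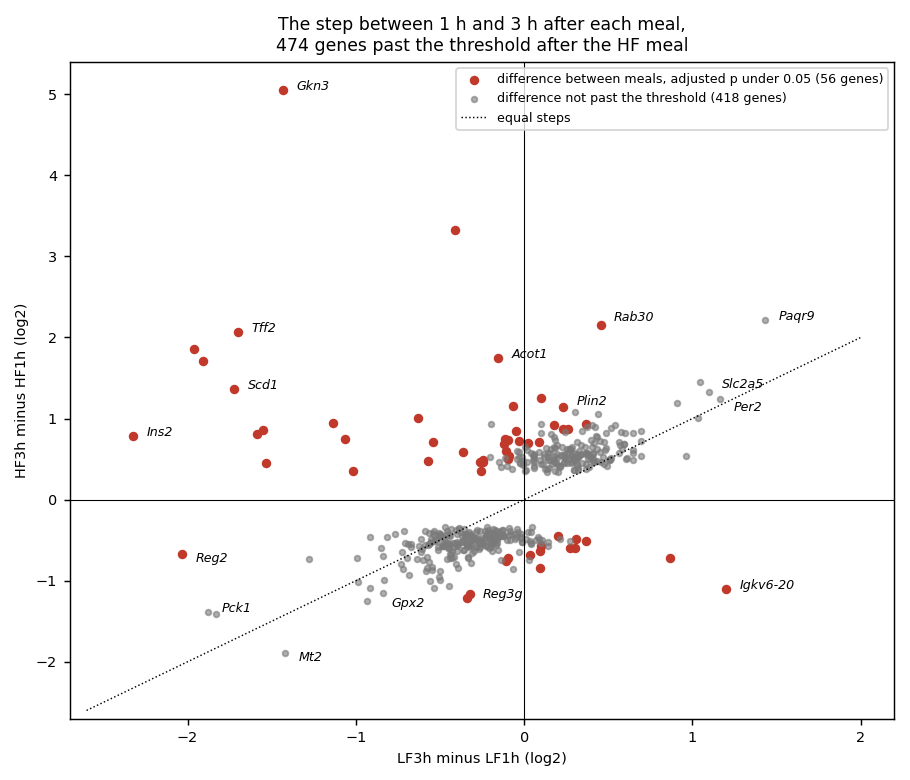
Step between 1 h and 3 h (log2) after the HF meal (vertical axis) against the step after the LF meal (horizontal axis) for the 474 genes past the threshold after the HF meal; large points mark the 56 genes whose steps differed at an adjusted p under 0.05, and the dotted line marks equal steps. Gkn3, Tff2, Scd1 and Ins2 lie in the upper left, while Slc2a5, Per2, Pck1 and Mt2 have steps of the same sign after both meals.

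Among the lipid genes the step of Acot1 was 1.75 after the HF meal and -0.15 after the LF meal (adjusted p of the difference = 3.61e-05). The values were 1.14 and 0.23 for Plin2 (0.00222), 1.25 and 0.10 for Mfsd2a (0.000503), 1.16 and -0.07 for G0s2 (0.00334), and 0.93 and 0.18 for Srebf1 (0.00471). In these 5 genes the HF step passed and the LF step did not. Over the list of PPARα targets 7 of 37 members had an HF step above the LF step, against 0.577% of all genes, and none had it below. Of these, the differences of Acot2, Pex11a and Acaa1b were lost without 7 or 8 of the 8 arrays, one at a time (adjusted p up to 0.194). Scd1 moved in opposite directions, with 1.37 after the HF meal and -1.72 after the LF meal (2.66e-08 for the difference). Pdk4, a kinase that holds back pyruvate oxidation in fasting, differed by 0.24 after the HF meal, which did not pass, and by -1.15 after the LF meal (1.59e-05). Rab30 rose in both, by 2.15 after the HF meal and by 0.45 after the LF meal, and the difference passed (1.14e-05). The differences of Cidec (adjusted p = 0.0504), Agpat2 (0.282) and Dgat2 (0.503) did not pass.

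Reg3g fell by 1.16 after the HF meal, with an LF step of -0.32 (adjusted p of the difference = 0.00312). Ang4, Itln1 and Lyz1 had LF steps of 0.09, 0.10 and 0.10, and their differences passed too (0.0114, 0.0136 and 0.0142). The same holds for Gpx2 (0.015), Hnf4g (0.0183) and Ccl28 (0.0376), which fell after the HF meal without a passing LF step. The difference of Reg3g passed with each of the 8 arrays left out, whereas each of the other 6 was lost without 4 or more of them, one at a time (adjusted p up to 0.0706 for Ang4, 0.0805 for Itln1, 0.0845 for Lyz1, 0.0958 for Gpx2, 0.111 for Hnf4g and 0.191 for Ccl28), among them LF3h replicate 2 for all 6, and that of Ccl28 also with the replicate block. Reg2 fell more after the LF meal (-2.03, with 3.61e-05 for the difference). The steps of Slc2a5 (1.10 in LF), Paqr9 (1.43), Per2 (1.17), Hsph1 (0.64), Slc11a2 (0.69), Mt2 (-1.42), Pck1 (-1.88), Zbtb16 (-1.83), Erbb3 (-0.99) and Ppara (-0.84) had the same sign after both meals and passed in each, and none of these differences between meals passed. In simulated data the test of the difference recovered 2% of differences of 0.5 and 74% of differences of 1. A difference that did not pass therefore does not show that the steps were equal.

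Stomach and pancreas genes set the largest differences between the steps. The LF step was -1.43 for Gkn3, -1.70 for Tff2, -1.96 for Gkn1 and -1.91 for Gkn2, and 10 of the 14 markers fell after the LF meal. All 17 digestive enzymes fell after the LF meal (median -1.12) and all 17 differed between the steps, with Cela2a at -0.89 and Prss3 at -2.83. In all, 39 of the 105 genes with the HF step above the LF step were on the stomach, pancreas, islet or adipocyte lists. Of the 18193 genes, these lists held 14 stomach, 17 enzyme, 26 other acinar, 10 islet and 10 adipocyte genes, with overlaps. In the other direction, immunoglobulin kappa genes led, with Igkv6-20 at -1.10 after the HF meal and 1.20 after the LF meal and Igk at -0.72 and 0.87. Near-identical immunoglobulin genes can share probes, so these are uncertain as single genes, and neither HF fall held (adjusted p up to 0.0971 for Igkv6-20 and 0.0933 for Igk).

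**Figure D5:**
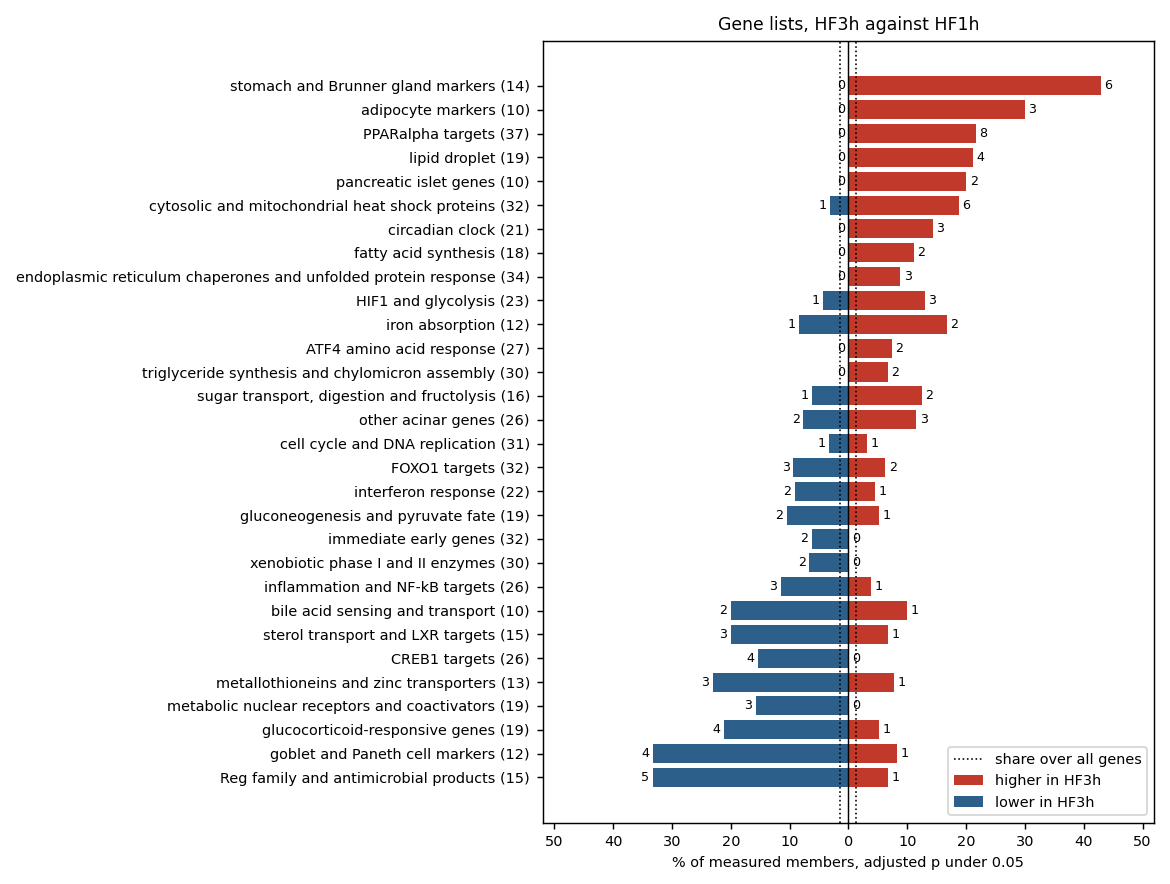
Share of the measured members (%, horizontal axis) that were higher (to the right) or lower (to the left) in HF3h for each gene list with at least 2 members past the threshold; the number of members is in brackets, the number past the threshold is beside each bar and the dotted lines mark the shares over all genes, 1.22% and 1.39%. Stomach, adipocyte, PPARα and lipid droplet genes stand at the top, and Reg family and Paneth cell genes at the bottom.

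Promoter motifs were compared over the same 250-base windows of RefSeq genes (GRCm38.p6), of which 178 of the genes that rose and 198 of those that fell had at least 1. The E-box CACGTG, the site of clock and of SREBP and MLX family factors, was found in 12.017% of the windows of genes that rose, 6.182% of those that fell and 7.383% of those of all measured genes. The cyclic AMP response element TGACGTCA was found in 1.288%, 2.909% and 2.12% of these windows, and the D-box TTATGNAA in 1.717%, 2.909% and 2.192%. Longer elements were rare. The heat shock element was in none of the windows of genes that rose or fell and in 0.403% of those of all measured genes, the PPAR response element in 0.429% of the windows of genes that rose (1 of 233), none of those that fell and 0.039% of all, the glucocorticoid response element in none of either and 0.028% of all, and the endoplasmic reticulum stress element in 0.429%, none and 0.105%. Mlx, whose product binds E-boxes with the carbohydrate sensor ChREBP, differed by 0.13 (adjusted p = 0.582). The shares are descriptions of these letters in these windows.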

How the data were processed

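RNA of the scraped mucosa of the first 5 cm of the duodenum, pooled over 20 mice per group, was hybridised to Affymetrix mouse genome arrays, 2 technical replicate arrays for each of 7 pools. The deposited values are log2 intensities that the authors computed with RMA, which corrects background, normalises quantiles across arrays and summarises each probe set, so that a change shared by most genes would not be seen; the version of RMA is not given in the sources used here. Array medians lay between 4.47 and 4.55, and the number of arrays limits the precision.

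Control probe sets were left out and 45037 probe sets were fitted in limma 3.58.1 (R 4.3.3), with 1 mean for each of the 7 groups over all 14 arrays (7 residual and 6.40 prior degrees of freedom, median SE 0.11). Changes are HF3h minus HF1h, with Benjamini-Hochberg adjustment over all probe sets and a threshold of 0.05. The HF step minus the LF step was tested in the same fit. Probe sets were named from the platform annotation, and each gene was read from its probe set with the highest mean over the arrays among those annotated to 1 gene. Named genes were the 20 largest rises and 20 largest falls of at least 2-fold without overlap of arrays, the 4 largest changes of each list, the 10 largest differences between steps in each direction and a set of regulators, and 24 genes were added after their values were seen. The genes and the lists were chosen with earlier results of these data known. In simulated data for HF3h minus HF1h (45037 probe sets), 28% of changes of 0.5 and 98% of changes of 1 on the log2 scale were recovered. The test of the difference between the steps recovered 2% and 74% of them. Alternatives were an intensity trend and a robust prior, smaller sets of arrays, a filter on low values, further scaling, a replicate block, other probe sets, other thresholds and each array left out. Promoters were read from RefSeq in Python 3.11.15 and figures drawn with matplotlib 3.10.9.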

Additional observations from a re-analysis of the deposited data

Results flagged for a closer look

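In each of the following genes the step between 1 h and 3 h differed between the meals by a direct test in limma (adjusted p under 0.05), and the value in brackets is the HF step minus the LF step on the log2 scale, over 2 arrays of 1 pool per group. Of these 44 differences, 28 passed with each of the 8 arrays left out in turn. The other 16 did not pass without at least 1 array: Acaa1b, Leap2, Olfm4 and Pex11a without any 1 of the 8, Acot2 and Mcm3 without any but HF3h replicate 2, Ccl28 without any but HF3h replicate 1, Ang4, Gpx2, Idi1 and Slc7a5 without 6 of them, Hnf4g and Itln1 without 5, Lyz1 without 4, Fabp4 without HF3h replicate 1, HF1h replicate 2 or LF3h replicate 1, and Igkv15-103 without HF3h replicate 1, HF1h replicate 1 or LF3h replicate 2. Markers of stomach, Brunner's glands, pancreas and islets had the widest differences: Gkn3 (6.49), Gkn1 (3.82), Tff2 (3.76), Gkn2 (3.62), Ins2 (3.11), Prss3 (2.75), Iapp (2.41), Cckar (2.39), Tff1 (2.08), Reg2 (1.36) and Cela2a (0.95). The transcript 2310057J18Rik (3.74) had a difference of the same size. The part of RNA from these tissues in the other differences was not tested.

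Fatty acid and lipid droplet genes with the HF step above the LF step were Scd1 (3.09), Acot1 (1.90), Pdk4 (1.39), G0s2 (1.23), Mfsd2a (1.15), Plin2 (0.91), Acot2 (0.83), Srebf1 (0.75), Pex11a (0.64) and Acaa1b (0.61), together with Adipoq (1.64) and Fabp4 (0.95), which mark adipocytes. Rab30 (1.70), Slc7a5 (0.70) and Leap2 (0.57) also had the HF step above the LF step.

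The HF step lay below the LF step for products of Paneth and goblet cells and of mucosal defence, namely Ang4 (-0.94), Gpx2 (-0.87), Reg3g (-0.83), Itln1 (-0.73), Lyz1 (-0.67) and Ccl28 (-0.65), and for the nuclear receptor gene Hnf4g (-0.72). It also lay below for the immunoglobulin kappa genes Igkv6-20 (-2.30), Igk (-1.58), Igkv6-14 (-1.50) and Igkv15-103 (-0.999), of which the last 2 did not pass in the HF step itself. Aplnr (-1.35), Nfkbiz (-1.01), Idi1 (-0.97) and Cited2 (-0.92) likewise did not pass in the HF step and rose after the LF meal: Aplnr, the apelin receptor gene, by 0.90, Nfkbiz, a regulator of NF-kB, by 0.87, Idi1, an isomerase of cholesterol synthesis, by 0.68 and Cited2, a transcriptional coregulator, by 0.65. The crypt genes Olfm4 (-0.80) and Mcm3 (-0.73, from a probe set with a low mean level of 4.34) complete the set.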

How the results depend on the processing

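Counts of probe sets changed by more than 1.5 times mostly with the model of the spread and with the probe sets tested. With an intensity trend in the prior, 942 were higher and 1133 lower in HF3h than in HF1h (419 and 431 in the reported fit), 370 differed above and 263 below between the steps (182 and 49), and 1300 were higher and 1059 lower in LF3h than in LF1h (505 and 557). With only the 4 HF3h and HF1h arrays, 137 were higher and 118 lower, and with only the 8 arrays at 1 h and 3 h, 25 differed below between the steps and the LF step had 273 higher and 362 lower. With a mean log2 value of at least 6, the counts were 937 and 1116 for the HF step, 24 and 13 at 2-fold (38 and 20), 291 and 193 for the difference, 1134 and 980 for the LF step, and 113 and 103 list members (64 and 53). Without probe sets that may bind several transcripts, 13 fell at 2-fold, 101 and 25 differed between the steps and 320 were higher in the LF step. A minimum of 1.5-fold gave 178 and 150, 3-fold gave 14 and 2, and a threshold of 0.01 gave 213 and 197. Median centring, quantile normalization and a robust prior kept all of these counts within 1.5 times.

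With 1 array left out, the counts ran from 164 to 286 higher and from 167 to 282 lower in HF3h, from 33 to 36 and from 21 to 24 at 2-fold, from 121 to 142 and from 21 to 53 for the difference, from 95 to 345 and from 235 to 345 for the LF step, and from 37 to 49 and from 33 to 41 for list members; fewer arrays leave fewer degrees of freedom. Of 115 named genes past the threshold in the HF step, 68 passed with each of the 4 HF arrays left out, 62 in the fit of 4 arrays, 115 with the trend and 107 with median-centred arrays. Of the 44 named differences between the steps, 9 to 15 no longer passed with 1 array left out (15 without LF3h replicate 2), 11 with only the 8 arrays and 4 with median-centred arrays. The sign turned only in genes near 0: Foxo1 had 0.013 with median-centred arrays, 0.00075 after quantile normalization and from -0.071 to 0.067 with 1 array left out, Creb1 from -0.0035 to 0.086 and Prss3 from -0.17 to 0.019.

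Replicate numbers of technical arrays gave no pairing (correlation of deviations -0.02 for HF3h with HF1h and -0.114 for LF3h with LF1h). With the replicate block, 384 were higher and 393 lower in HF3h, 38 and 20 at 2-fold, and 111 of the 115 named genes still passed. For the difference between the steps the block gave 166 above and 45 below, and 6 of the 44 named differences no longer passed (Acot2, Ccl28, Idi1, Leap2, Mcm3 and Pex11a).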

Other observations

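Further genes just short of a 2-fold change were looked up after their values were seen. Klhl24, an adaptor of a ubiquitin ligase, measured 5.37 and 5.36 in the HF3h arrays, against 6.28 and 6.43 in the HF1h arrays, a fall of 1.0 ± 0.11 (SE, adjusted p = 0.000262), and Fut4, a fucosyltransferase, fell by 0.99 ± 0.12 (0.000472). Both also fell after the LF meal, by 0.50 for Klhl24 and by 0.83 for Fut4. Among genes of the crypt, Olfm4, a marker of intestinal stem cells, measured 7.18 and 7.21 in the HF3h arrays, against 7.77 and 7.60 in the HF1h arrays, a fall of 0.49 that did not pass with any 1 array left out, and Mcm3, a helicase subunit of DNA replication, differed by -0.43 (adjusted p = 0.051). The probe set of Mcm3 had a low mean level over all arrays (4.34), and its other probe sets differed by -0.30 to 0.07. The LF steps were 0.31 for Olfm4 and 0.31 for Mcm3, and both differences between the steps passed (0.0346 and 0.0404). With 1 of the 8 arrays left out, the difference of Olfm4 passed in no case and that of Mcm3 only without HF3h replicate 2.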
